A study of Mus musculus with 9 samples.

Results

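The cytosolic ribosomal proteins are the protein components of the ribosomes that translate nuclear mRNAs. Their genes were taken by name from the deposited table, as every row named Rpl or Rps with a number and an optional suffix a, x, l or l1, together with Rplp0, Rplp1, Rplp2 and Rpsa, while S6 kinases and rows named as pseudogenes (-ps) were left out. This gave 82 of 21899 genes, of which 51 have large-subunit names and 31 have small-subunit names. Expression was profiled in mouse Neuro-2a (N2a) cells, a neuroblastoma line labelled as neuroblast and untreated. The cells carried a pLKO.1 puromycin vector whose hairpin targeted either luciferase, as the control group shlucif, or Arf1, as the groups shArf1-1 and shArf1-2. Each group held 3 libraries, and the 6 libraries with an Arf1 hairpin are called Arf1-deficient. The study asked how the small GTPase Arf1 acts on lipid metabolism, and all groups are cultures of the same line with a hairpin vector, so that no library lacks a hairpin.

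A ribosome joins a large subunit, which holds the catalytic centre for peptide bonds, to a small subunit, which reads the mRNA. The genes of its proteins are among the most strongly transcribed of a growing cell, and their products are made in near equal amounts. Most of their mRNAs begin with a run of pyrimidines led by a C, the terminal oligopyrimidine (TOP) motif, which places their translation under mTOR signalling through Larp1. Ribosomal protein genes have many processed pseudogenes, whose sequence is nearly that of the mRNA.

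The first transcribed bases of the members are shown first, since the TOP motif is the sequence feature for which this gene class is best known. RefSeq promoter sequences of GRCm38.p6 were matched by symbol for 62 of the 82 members. In windows from 15 bases before to 15 bases after each annotated start, read on the gene's strand, a run of at least 7 pyrimidines beginning with C was present in 32 of the 62 members (51.6%). The same was true of 16.4% of the 27025 genes with a promoter sequence, of 18.2% of the 9917 tested genes among them, and of 15.9% of the matched mitochondrial ribosomal protein genes. None of the 28 matched genes of a ribosome biogenesis list held such a run. The motif CTTTCC, searched on the gene's strand in the same window, was in 16.1% of members and 1.67% of all genes. The motif CCGGAAG, searched on both strands from 250 bases before to 50 bases after the start, was in 40.3% of members, 9.93% of all genes, 20.2% of tested genes and 42.9% of the biogenesis genes. The annotated start is not always the one used, so that a window without a run says only that these letters are not in it, and a gene with several annotated starts had several windows.

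Below are the windows of 5 members with a run (Rps6, Rps18, Rpl35a, Rpl15 and Rpl35) and of 2 without (Rpl26 and Rpl7l1). They include members with the largest falls and the member that rose. Rps6 and Rpl15 had smaller falls, and Rpl35 did not pass the threshold used below. They lie at chr4:86857353-86857382 (Rps6, minus strand), chr17:33955651-33955680 (Rps18, minus strand), chr16:33056467-33056496 (Rpl35a, plus strand), chr14:18270972-18271001 (Rpl15, minus strand), chr2:39005117-39005146 (Rpl35, minus strand), chr11:68901551-68901580 (Rpl26, plus strand) and chr17:46782642-46782671 (Rpl7l1, minus strand) in GRCm38.p6. Rpl35a also has windows at chr16:33056438-33056467 and chr16:33056499-33056528, not shown, whose longest run was 3 bases. Capitals mark the run of C and T that begins with C, and the base after the 15th is the first annotated as transcribed.
Rps6: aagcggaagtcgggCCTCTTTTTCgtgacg
Rps18: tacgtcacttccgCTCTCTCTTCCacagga
Rpl35a: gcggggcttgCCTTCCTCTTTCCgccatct
Rpl15: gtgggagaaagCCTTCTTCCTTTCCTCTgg
Rpl35: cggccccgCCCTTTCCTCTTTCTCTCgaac
Rpl26: ctcgcggcaacttacagaaccggaagtcgc
Rpl7l1: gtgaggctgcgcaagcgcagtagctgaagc
Among the 70 members that were lower in Arf1-deficient cells, 51 had a window and 52.9% of these held a run, against 51.6% of all matched members. The 51 make up most of the matched members, so that these shares cannot show whether runs and falls are related.

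Libraries held between 11182479 and 15594615 counts. Arf1 was counted 9446, 8840 and 9333 times with shlucif, 3406, 2982 and 4137 times with shArf1-1, and 5073, 4420 and 5054 times with shArf1-2, so that it was low in every library labelled as Arf1-deficient. The neuroblast markers of a list of 14 summed to between 1506 and 1547 FPKM with shlucif and between 1660 and 1876 FPKM with the Arf1 hairpins, although Nefl stayed at or under 2 counts. Of the 13 of them that were tested, 10 were higher (76.9%, against 31.6% of all tested genes) and 2 were lower (15.4%, against 32.9%). The 2 lower ones were the abundant Prph (log2 fold change -0.38, adjusted p = 1.84e-06) and Map2 (-0.50, adjusted p = 8.2e-06). Macrophage markers were present in the control libraries. Of a list of 22, 16 reached 20 counts in all 3 shlucif libraries, and the list summed to between 213 and 256 FPKM there. With shArf1-1 it summed to between 2.55 and 3.31 FPKM and with shArf1-2 to between 3.81 and 4.04 FPKM, with Ctss and Spi1 at 0 counts in all 6 Arf1-deficient libraries. Of the 18 markers tested, 17 were lower (94.4%, against 32.9% of all tested genes) and 1 was higher (5.56%, against 31.6%). The higher one, Tmem119, went from 31 or 32 counts with shlucif to between 47 and 101 counts with the Arf1 hairpins. The part of the macrophage markers in the results below was not tested. The 185 genes found in the controls only took between 0.129% and 0.151% of the shlucif counts and included 0 members.

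As a class, the cytosolic ribosomal protein genes took a smaller share of the RNA in Arf1-deficient cells. They held 7.32%, 6.95% and 7.53% of the counts in the shlucif libraries, 5.86%, 5.67% and 5.60% in the shArf1-1 libraries, and 5.72%, 5.70% and 5.78% in the shArf1-2 libraries. The control libraries did not overlap with those of either hairpin, and the hairpins overlapped with each other. The mean share (± SD, n = 3) was 7.27% ± 0.294 with shlucif, and it was 5.71% ± 0.135 and 5.74% ± 0.0415 with shArf1-1 and shArf1-2. Large-subunit genes went from 4.48% to 3.45% and 3.48% of counts, and small-subunit genes from 2.79% to 2.26% and 2.25%. The 78 mitochondrial ribosomal protein genes, which build the separate ribosome of mitochondria, took more of the counts rather than less, at 0.326% ± 0.0078 with shlucif, 0.372% ± 0.0086 with shArf1-1 and 0.356% ± 0.0043 with shArf1-2 (SD, n = 3 each). In bulk samples, fewer cells with a given level and less RNA per cell cannot be told apart.

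**Figure D1:**
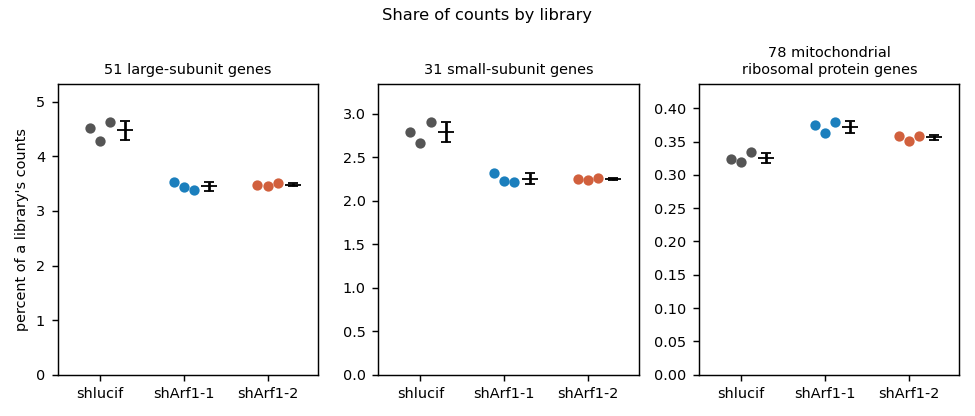
Share of each library's counts (percent, from 0) taken by the 51 large-subunit genes, the 31 small-subunit genes and the 78 mitochondrial ribosomal protein genes. Points are libraries and bars show mean ± SD of 3 libraries, and the 6 Arf1-deficient libraries lie below the 3 shlucif libraries for both cytosolic subunits and above them for the mitochondrial genes.

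Of the 82 members, 79 had enough counts to be tested among 12448 genes. In the comparison of 6 Arf1-deficient with 3 shlucif libraries, 70 members were lower and 1 was higher past an adjusted p of 0.05, and 8 did not pass. Each adjusted p in the text is from the edgeR quasi-likelihood test, corrected by Benjamini-Hochberg over all tested genes, and SE is the standard error of the log2 fold change. Over all tested genes 32.9% were lower and 31.6% were higher. The median log2 fold change of the members was -0.36, with an interquartile range of 0.219, while all tested genes had a median of 0.00 and an interquartile range of 0.737. The members thus lay close together on the log2 scale, and 54 of the 70 lower members fell within -0.6 and -0.2. In 64 members every Arf1-deficient library was below every shlucif library, against 30.1% of all tested genes, and in 1 member every such library was above, against 27.9%. The subunits were alike in these counts, with 42 of 48 tested large-subunit members lower (median -0.39) and 28 of 31 small-subunit members lower (median -0.36). For scale, the 106 other genes at or above the members' median level had a median log2 fold change of -0.06, with 45 lower and 37 higher.

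Each hairpin was also compared alone with the same 3 shlucif libraries, so that the comparisons share their controls. With shArf1-1, 66 members were lower and 2 were higher (all tested genes 34.4% and 33.1%), with a median of -0.36. With shArf1-2, 72 were lower and 1 was higher (all tested genes 32.6% and 30.9%), with a median of -0.39. Lower with both were 66 members, against 29.0% of all tested genes.

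**Figure D2:**
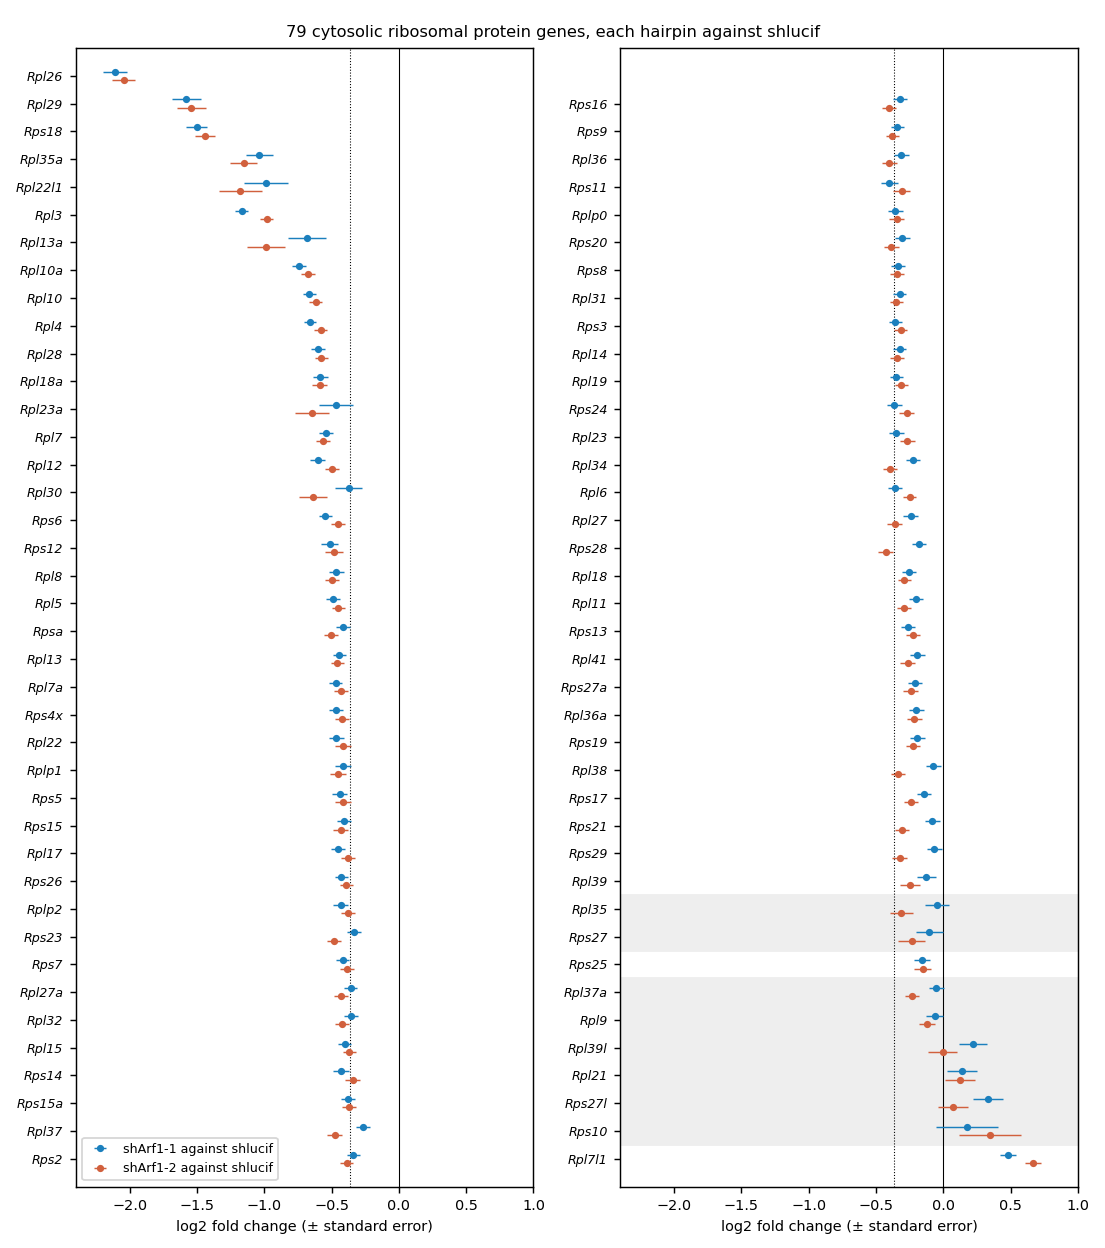
Log2 fold change ± standard error of the 79 tested members with shArf1-1 (blue) and with shArf1-2 (orange) against shlucif, ordered by the change over both hairpins. The dotted line is the median over both hairpins (-0.36), grey bands mark the 8 members that did not pass the threshold, and Rpl26 at the top had the largest fall while Rpl7l1 at the bottom rose.

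The shift was seen library by library. Relative to the mean of the shlucif libraries, the median log2 CPM of the 79 members was 0.02, -0.08 and 0.06 in the controls. It ranged from -0.40 to -0.32 over the 6 Arf1-deficient libraries, while the median of all tested genes stayed between -0.01 and 0.01. The members also moved together within the control group. In shlucif library 2, 72 of 79 were below the shlucif mean, and in library 3, 6 were. The median of all tested genes was -0.004 in library 2 and -0.003 in library 3, and their share below the mean was not counted. Library 2, the lowest control, lay nearer to the other controls (-0.08) than to the nearest Arf1-deficient library (-0.32).

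**Figure D3:**
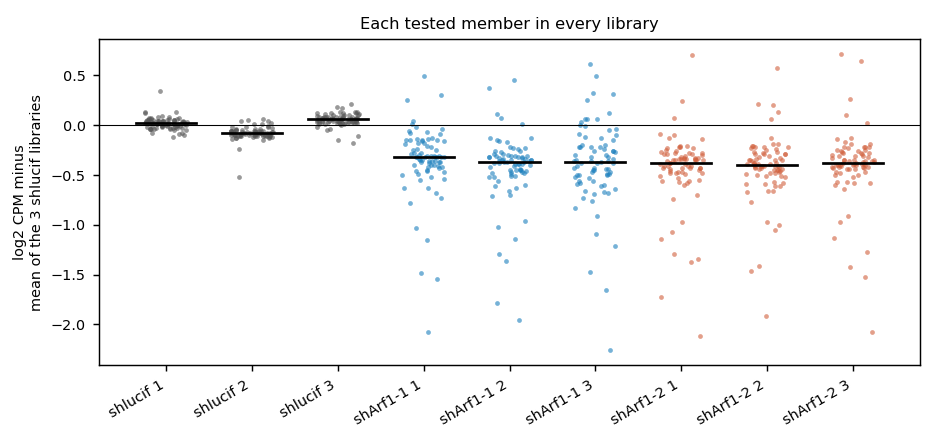
Log2 CPM of each of the 79 tested members minus its mean over the 3 shlucif libraries, by library, with black lines at the library medians. Medians lie between -0.08 and 0.06 with shlucif and between -0.40 and -0.32 with the Arf1 hairpins.

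The members with the highest level per length were Rpl8, a protein near the catalytic centre, and Rplp0 and Rplp1, which form the stalk that calls elongation factors to the ribosome. With shlucif, Rpl8 was at 2582, 2382 and 2540 FPKM, Rplp0 at 2471, 2232 and 2421 FPKM and Rplp1 at 2324, 2167 and 2373 FPKM. These neighbours, and Rps15 at 2307, 2148 and 2368 FPKM, overlapped with each other. Each fell in every Arf1-deficient library. Rpl8 was at 1946, 1982 and 1715 FPKM with shArf1-1 and at 1886, 1780 and 1918 FPKM with shArf1-2, all below the controls, with a log2 change of -0.48 (SE 0.05, adjusted p = 1.61e-07). Rplp0 changed by -0.35 (adjusted p = 1.06e-05), Rplp1 by -0.43 (adjusted p = 1.08e-06) and their partner Rplp2 by -0.41 (adjusted p = 1.13e-06), each with 6 of 6 libraries below all controls. The median FPKM over the members was 405 with shlucif, 302 with shArf1-1 and 317 with shArf1-2, and 65 members had at least 100 FPKM with shlucif. The order of levels among the members was much the same in the groups (Spearman's rho over 82 members 0.985 between shlucif and shArf1-1, and 0.99 between shlucif and shArf1-2, a description across genes of the same libraries).

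Several members have known roles outside peptide synthesis, and those named here were lower. Rps6, the small-subunit protein that S6 kinases phosphorylate downstream of mTOR, was at 690, 644 and 696 FPKM with shlucif, 507, 476 and 462 FPKM with shArf1-1, and 511, 512 and 535 FPKM with shArf1-2. No Arf1-deficient library reached the lowest control, and the log2 change was -0.50 (SE 0.05, adjusted p = 6.98e-08). Rpl5 and Rpl11 bind a ribosomal RNA of the large subunit and, when free of the ribosome, the p53 ligase Mdm2. Rpl5 was at 442, 425 and 447 FPKM with shlucif, 331, 318 and 323 FPKM with shArf1-1 and 337, 328 and 346 FPKM with shArf1-2, a log2 fold change of -0.47 (adjusted p = 2.18e-08). Rpl11 changed less, at -0.25 (SE 0.05, adjusted p = 0.000523), with 6 of 6 libraries still below the controls. Rpsa, a small-subunit protein also known as a laminin receptor, changed by -0.46 (adjusted p = 3.04e-07), and Rps27a, made as a fusion to ubiquitin, by -0.23 (adjusted p = 0.00109).

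The largest falls were in Rpl26, Rpl29, Rps18, Rpl35a and Rpl22l1, followed by Rpl3, and these 6 were the members at a log2 fold change of -1 or below. Rpl26, a large-subunit protein by the exit tunnel, was at 63.9, 62.1 and 56.2 FPKM with shlucif, 14.8, 16.2 and 13.1 FPKM with shArf1-1, and 14.6, 17.0 and 14.9 FPKM with shArf1-2. All 6 Arf1-deficient libraries were below the controls, and the log2 change was -2.07 (SE 0.08, adjusted p = 4.14e-14). Rpl29 was at 42.0, 40.2 and 34.1 FPKM with shlucif and from 11.5 to 14.99 FPKM in Arf1-deficient cells, a change of -1.56 (SE 0.10, adjusted p = 6.19e-11). Rpl35a, at 12.3, 12.4 and 10.5 FPKM with shlucif, was between 4.80 and 6.34 FPKM in the others, a change of -1.09 (SE 0.09, adjusted p = 4.52e-09).

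Rpl3, which reaches the catalytic centre and is the longest of these, was the 1 member listed at 100 FPKM or more among the 6. It was at 464, 451 and 471 FPKM with shlucif, 215, 217 and 208 FPKM with shArf1-1 and 246, 245 and 246 FPKM with shArf1-2, a log2 change of -1.07 (SE 0.05, adjusted p = 3.76e-12). The groups did not overlap, and the hairpins did not overlap either. The other 5 had mean levels between 6.05 and 60.7 FPKM with shlucif. In terms of listed level, the 65 tested members at 100 FPKM or more lay between -1.07 and -0.09 with a median of -0.36 and 62 of them lower, while the 14 under 100 FPKM spread from -2.07 to 0.57, with 8 lower, 1 higher and 5 not past the threshold.

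Some members share much of their sequence with other genes. Words of 50 bases from the coding sequence were compared with all other annotated transcripts, and a median of 90.2% of a member's words were also found in another gene, with 29 members at 100%. Rps18, part of the head of the small subunit, was at 61.6, 53.8 and 54.7 FPKM with shlucif, 20.1, 23.9 and 18.7 FPKM with shArf1-1, and 22.8, 22.5 and 20.5 FPKM with shArf1-2, a log2 change of -1.47 (SE 0.07, adjusted p = 2.63e-12). The row Rps18-ps5, which shares words with it and was left out by name, was at 198, 189 and 229 FPKM with shlucif, 182, 180 and 209 FPKM with shArf1-1, and 188, 194 and 179 FPKM with shArf1-2. Those groups overlapped, and that row changed by -0.18 (SE 0.07, adjusted p = 0.0234). Summed, both rows had 282, 251 and 282 CPM with shlucif, between 159 and 171 CPM with shArf1-1 and between 157 and 168 CPM with shArf1-2, a log2 ratio of means of -0.72 in place of -1.47 for Rps18 alone. How reads that match both rows were assigned is not given, so that the size of the change in Rps18 is uncertain.

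Of the 79 tested members, 10 shared words with another row outside the members that had any counts. The partner rows took 113 CPM with shlucif beside Rpl9 (436 CPM), 62.8 CPM beside Rpl21 (20.3 CPM), 34.3 CPM beside Rps27 (129 CPM), 28.5 CPM beside Rpl35 (38.6 CPM), 128 CPM beside Rps18 (143 CPM) and at most 7.37 CPM in the other 5. Adding these could change only those 10 members, and it left the median log2 ratio at -0.36, 74 members below 0, and 64 with no overlap. Genes that share words but are not rows of the table could not be added. The unchanged median thus does not measure the effect of shared sequence on the class. In 1 member, Rpl21, the own row was under 50% of such a sum, and Rpl21 did not pass the threshold (log2 fold change 0.13, adjusted p = 0.291). Rpl26, Rpl35a, Rpl22l1 and Rpl3 had no partner row with counts. Even so, 87.3%, 82.2%, 82.6% and 95.7% of their words, in that order, were also found in other genes. Reads that the counting step discarded cannot be recovered from the table.

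The paralogs did not all follow their main copies. Rpl7l1, a paralog of Rpl7 that acts in building the large subunit, was the 1 member that rose in the comparison over both hairpins. It was at 31.5, 28.6 and 31.1 FPKM with shlucif, 44.2, 43.2 and 44.4 FPKM with shArf1-1, and 51.7, 48.2 and 52.0 FPKM with shArf1-2. All 6 Arf1-deficient libraries were above the controls, with a log2 change of 0.57 (SE 0.07, adjusted p = 5.24e-07). Rpl7 itself was at 490, 483 and 543 FPKM with shlucif and from 338 to 371 FPKM in Arf1-deficient cells (log2 fold change -0.55, adjusted p = 1.12e-08). Rpl22l1 fell from 5.83, 5.75 and 6.57 FPKM with shlucif to 3.74, 2.38 and 3.32 FPKM with shArf1-1 and 2.81, 3.06 and 2.56 FPKM with shArf1-2 (log2 fold change -1.08, SE 0.15, adjusted p = 2.6e-06). Its partner Rpl22, an RNA-binding protein of the large subunit, changed by -0.44 (SE 0.06, adjusted p = 1.1e-06).

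The paralogs Rps27l and Rpl39l did not pass the threshold over both hairpins. Rps27l, known as a p53 target, was at 45.0, 46.4 and 55.4 FPKM with shlucif, 60.1, 53.04 and 77.96 FPKM with shArf1-1, and 53.6, 54.0 and 54.6 FPKM with shArf1-2. Library 3 of shlucif overlapped with both hairpins, and the log2 fold change was 0.21 (adjusted p = 0.141) over both and 0.34 (adjusted p = 0.0126) with shArf1-1. Over both it was 0.11 without shArf1-1 library 3 and 0.31 without shlucif library 3. Rps27 had a log2 fold change of -0.17 (adjusted p = 0.104). Rpl39l, whose sequence shared 0% of its words with other genes, had a log2 fold change of 0.11 (adjusted p = 0.394, and -0.001 without shlucif library 2), and Rpl39, which lines the exit tunnel, of -0.19 (adjusted p = 0.0311). Rps4x (-0.44, adjusted p = 9.06e-08), Rpl10 (-0.64, adjusted p = 1.84e-10) and Rpl36a (-0.21, adjusted p = 0.00212) fell, while Rpl36al, the paralog of Rpl36a and outside the naming rule, had between 16 and 51 counts and did not pass (0.56, adjusted p = 0.121).

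The 3 members that were not tested had few counts. Rpl24 had between 0 and 5 counts in each library, and all of its 50-base words were also found in other genes, so that its row says little of its transcript. Rpl10l had between 0 and 17 counts and Rpl3l, the muscle paralog of Rpl3, between 4 and 15.

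Besides Rps27, Rpl39l, Rpl21 and Rps27l, the members that did not pass were Rpl35 (log2 fold change -0.18, adjusted p = 0.117), Rpl37a (-0.14, adjusted p = 0.0611), Rpl9 (-0.09, adjusted p = 0.192) and Rps10 (0.26, adjusted p = 0.289, listed at 1.13 to 2.69 FPKM). Among the lower members, the smallest changes were those of Rps25 (-0.16, adjusted p = 0.0251), Rpl39, Rps29 (-0.19, adjusted p = 0.0484) and Rps21 (-0.19, adjusted p = 0.0213). Rps29 just inside and Rpl37a just outside are the members nearest to the threshold. In 6 lower members (Rpl38, Rpl39, Rpl41, Rps21, Rps25 and Rps29) at least 1 Arf1-deficient library overlapped with the controls. Without shlucif library 3, 5 calls were lost, with an adjusted p of 0.137 for Rpl38, 0.141 for Rpl39, 0.175 for Rps21, 0.25 for Rps25 and 0.166 for Rps29. Rpl38, Rpl39 and Rps29 also lost the call without shlucif library 1 or any shArf1-2 library, and Rpl39 and Rps29 also without shArf1-1 library 2, with adjusted p between 0.051 and 0.159. Conversely, Rpl37a passed without shlucif library 2 (0.0258) or without shArf1-1 library 1 (0.0311) or 3 (0.0213), Rps27 without shArf1-1 library 1 (0.043) or 3 (0.0187), and Rpl35 without shArf1-1 library 3 (0.0115). Small changes also moved with single libraries. Without shlucif library 3, the log2 fold change was -0.02 for Rpl9 and -0.09 for Rps25, and without shlucif library 2 it was 0.04 for Rps10, which ranged up to 0.45 without shlucif library 1.

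The hairpins differed from each other in 10 members (14.4% of all tested genes did). The shArf1-2 libraries were lower in 8 and higher in 2 (all tested genes 7.46% lower and 6.98% higher). Rpl38, a short large-subunit protein, was at 546, 545 and 585 FPKM with shlucif, 542, 514 and 595 FPKM with shArf1-1, and 447, 492 and 457 FPKM with shArf1-2. The shArf1-1 libraries overlapped with the controls and the shArf1-2 libraries lay below both, and the difference between hairpins was -0.26 (log2, SE 0.05, adjusted p = 0.000931). Rps29, a zinc-binding protein of the small subunit, showed the same order, at 549, 500 and 556 FPKM with shlucif, 533, 501 and 557 FPKM with shArf1-1, and 420, 490 and 439 FPKM with shArf1-2 (difference -0.26, adjusted p = 0.00195). Rpl13a, Rps27l and Rpl30 had differences as large and did not pass. They were at -0.30 (adjusted p = 0.187), -0.26 (adjusted p = 0.125) and -0.26 (adjusted p = 0.0991), in that order. Rpl13a, with the most negative difference of the tested members, has a coding sequence of 609 bases.

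The 8 members lower with shArf1-2 than with shArf1-1 (10.1% of tested members, against 7.46% of all tested genes) all had short coding sequences. These had between 168 and 369 bases, while the median over tested members was 453 bases. Over the 23 tested members of 369 bases or fewer the median difference was -0.17, and over the longer ones 0.02. The cut was set at the longest of the 8, which are among the 23, so that this split is not independent of the calls. Across the 79 members, which share their libraries, Spearman's rho between coding length and the hairpin difference was 0.543. Genes outside the members were not compared by coding length, so that whether the pattern is particular to the members was not tested. The listed gene length differs from the coding length, so that a correction for it does not test the pattern by coding length. With a correction for listed gene length in each library, 7 members were lower and 2 were higher with shArf1-2. These counts rest on few libraries, since 13 were lower without shArf1-1 library 2, 5 without its library 1 or 3 and 4 without shArf1-2 library 1. Higher were 2 or 3 members, except that 1 was without shArf1-1 library 1, shArf1-2 library 1 or shArf1-2 library 3.

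**Figure D4:**
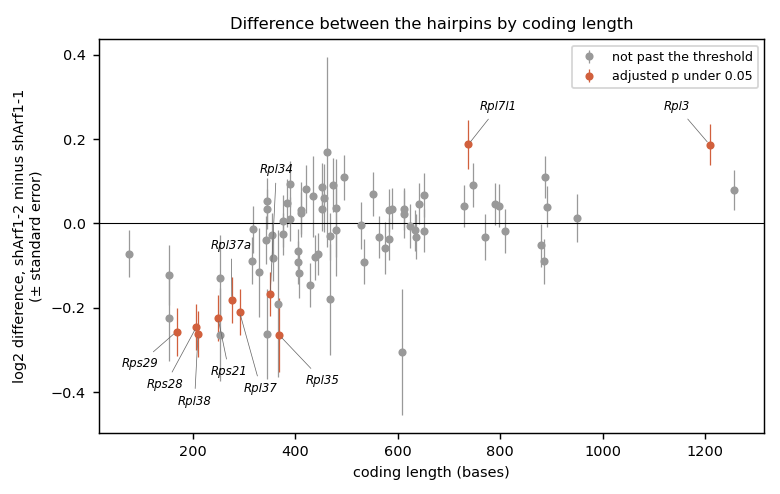
Difference between hairpins (shArf1-2 minus shArf1-1, log2, ± standard error) of the 79 tested members against coding length in bases. Orange points are the 10 members past an adjusted p of 0.05, of which the 8 below 0 have 369 bases or fewer, and Rpl7l1 and Rpl3 lie above 0.

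Of a list of 7 further genes of the cytosolic ribosome outside the naming rule, 6 were tested. Of these, 4 were lower (66.7%, against 32.9% of all tested genes) and 2, with positive values, did not pass. Rps3a1, a small-subunit protein, was at 652, 630 and 643 FPKM with shlucif, 466, 438 and 444 FPKM with shArf1-1, and 464, 457 and 449 FPKM with shArf1-2, with no overlap and a log2 fold change of -0.57 (adjusted p = 1.56e-09). Rack1, a signalling scaffold on the small subunit, changed by -0.53 (adjusted p = 1.14e-06), Fau, made as a fusion to a ubiquitin-like protein, by -0.22 (adjusted p = 0.000593), and Rps27rt by -0.25 (adjusted p = 0.0358).

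Genes listed as having other TOP mRNAs, chiefly those of translation factors, were mostly lower. In the windows described above, 5 of the 18 of them with a RefSeq promoter (27.8%) held a run and 0 held CTTTCC. Of a list of 25, 19 were tested. Of these, 16 were lower (84.2%, against 32.9% of all tested genes) and 0 were higher (against 31.6%), with a median log2 fold change of -0.46. Eef1a1, which delivers aminoacyl-tRNAs, was at 6317, 5945 and 6218 FPKM with shlucif and from 4032 to 4669 FPKM in Arf1-deficient cells, a change of -0.56 (adjusted p = 3.14e-09). The largest changes were those of the helicase Eif4a2 (-1.001, adjusted p = 1.66e-10), its activator Eif4b (-0.89, adjusted p = 2.2e-12) and the poly(A)-binding protein Pabpc1 (-0.84, adjusted p = 2.09e-12). All of these were below every control in 6 of 6 libraries.

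Genes that build ribosomes were mostly higher. Of 33 genes for rRNA transcription, modification and assembly, 26 were higher (78.8%, against 31.6% of all tested genes) and 3 were lower (9.09%, against 32.9%), with a median of 0.43. Nop56, a core protein of the particles that methylate rRNA, was at 41.9, 41.7 and 40.2 FPKM with shlucif, 86.4, 86.5 and 85.4 FPKM with shArf1-1, and 95.8, 100.1 and 97.7 FPKM with shArf1-2, a log2 fold change of 1.09 (adjusted p = 7.57e-12). Heatr3, which takes part in the import of Rpl5 and Rpl11, rose by 1.49 (adjusted p = 8.2e-11), the assembly factor Rrp12 by 1.13 (adjusted p = 4.88e-10) and the RNA polymerase I subunit Polr1b by 1.12 (adjusted p = 4.13e-11). The 3 lower ones were the nuclease Nob1 (-0.37, adjusted p = 8.54e-06) and the shared polymerase subunits Polr1d (-0.29, adjusted p = 0.000591) and Polr1c (-0.25, adjusted p = 0.000301). Of 77 tested mitochondrial ribosomal protein genes, 29 were higher (37.7%, against 31.6% of all tested genes) and 10 were lower (13.0%, against 32.9%), with a median of 0.14.

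**Figure D5:**
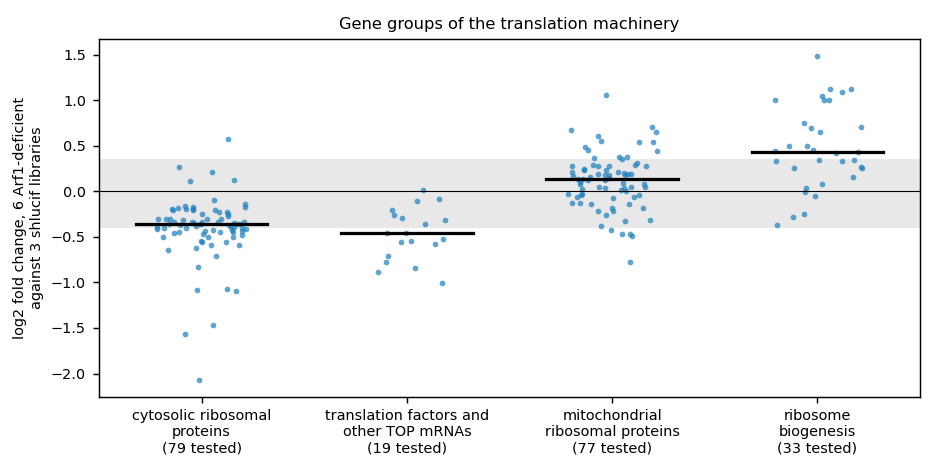
Log2 fold change of 6 Arf1-deficient against 3 shlucif libraries for genes of 4 groups, with a black line at each group's median (-0.36, -0.46, 0.14 and 0.43 from left to right). The grey band spans the middle 50% of all tested genes.

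Known regulators of ribosomal protein genes and of TOP mRNAs were more often higher than lower. Of 23, 22 were tested. Of these, 13 were higher (59.1%, against 31.6% of all tested genes) and 4 were lower (18.2%, against 32.9%), with a median of 0.24. Mycn, the transcription factor amplified in many neuroblastomas, was at 11.4, 12.4 and 12.1 FPKM with shlucif, 29.9, 27.9 and 26.3 FPKM with shArf1-1, and 18.6, 17.0 and 17.7 FPKM with shArf1-2 (log2 fold change 0.87, adjusted p = 0.00796), and no groups overlapped. Its relative Myc rose by 0.86 (adjusted p = 7.41e-10), the mTOR partner Mlst8 by 0.73 (adjusted p = 9.67e-06) and Larp1, which binds TOP mRNAs, by 0.51 (adjusted p = 7.78e-08). Lower were the translation inhibitor Pdcd4 (-1.24, adjusted p = 7.45e-10), the mTOR inhibitor Tsc1 (-0.58, adjusted p = 6.42e-08) and the subunits of a transcription factor that binds CCGGAAG-like sites, Gabpa (-0.25, adjusted p = 0.00394) and Gabpb1 (-0.18, adjusted p = 0.0356).

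Free Rpl5 and Rpl11 can stabilise p53. Of 13 of its targets and partners, 12 were tested, 4 were higher (33.3%, against 31.6% of all tested genes) and 3 were lower (25%, against 32.9%). With shArf1-1 alone 6 were higher (50%, against 33.1% of all tested genes) and 2 were lower (16.7%, against 34.4%). Higher were the cyclin Ccng1 (0.80, adjusted p = 1.79e-07), the RNA-binding protein Zmat3 (0.78, adjusted p = 4.31e-07), Sesn2, an inhibitor of mTOR signalling (0.64, adjusted p = 3.45e-06), and the p53 ligase Mdm2 (0.33, adjusted p = 2.05e-05). Lower were the death gene Bbc3 (-1.20, adjusted p = 5.12e-10), Trp53inp1 (-1.02, adjusted p = 1.7e-05) and the cell cycle inhibitor Cdkn1a (-0.20, adjusted p = 0.00645), and Trp53 itself did not pass (0.12, adjusted p = 0.0656).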

How the data were processed

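The authors deposited 1 table with a read count and an FPKM value per gene and library. The deposited counts are whole numbers without normalization, and the deposited FPKM values are counts over listed length and total count. Per the labels, polyadenylated RNA was selected on oligo(dT) beads, fragmented and primed at random. The submitters' processing notes name mm10, and the aligner, counting tool, strand setting and filters are not given in the sources used here. The columns named shArf2 were taken as shArf1-2, since no other sample fits these names. There were 8 lines holding only the rest of an annotation field, which were skipped, and coordinates in the table were not used.

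Counts were fitted with edgeR 4.0.16 in R 4.3.3 (filterByExpr, TMM, robust glmQLFit, glmQLFTest) on all 9 libraries, 6 against 3 for the main comparison and as 3 groups for each hairpin and their difference. All adjusted p-values in the text are Benjamini-Hochberg values over 12448 genes from this test, and errors are log2 fold change over the root of F. The alternatives were DESeq2 1.42.0, other scalings, filters, limma 3.58.1 on log2(FPKM + 1) and log2(FPKM + 0.1), corrections for length and GC content, a replicate block, removal of genes found in controls only, and leaving out each library. On simulated counts, the 6 against 3 test recovered 71 of 99 genes changed by 0.4 and 93 of 97 changed by 1 on the log2 scale and called 8 others among 12313 genes. The simulation gave every gene the same dispersion, changed few genes and gave both hairpins the same effect. Its error count therefore does not carry over to these data.

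The members and lists were chosen with earlier results of these data known. Named were the 5 members with the highest and the 5 with the lowest fold change past the threshold, the 3 most different between hairpins in each direction, the 3 at the highest level, Rplp0, Rplp1, Rplp2, Rpsa, Rps6, Rpl5, Rpl11 and Rps27a, paralogs, untested members, those nearest the threshold, and up to 3 genes per list and direction. Others were added after their values were seen, including Rps15, Rpl41, the remaining members past no threshold, the remaining members that differed between hairpins, Eef1a1, Nop56, Trp53 and Rps18-ps5. Not every result under these rules is given here. Level comparisons between genes use FPKM only. Coding sequences came from GENCODE vM21 (GRCm38). Nothing states that replicates were separate cultures, so that p-values measure the spread between these libraries, which may be technical. Shared sequence makes counts of many members uncertain, as does the unknown strand setting.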

Additional observations from a re-analysis of the deposited data

Results flagged for a closer look

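The effect of the 2 hairpins, each against the same shlucif libraries, differed in 10 of 79 tested members. This is by the test of the difference itself (edgeR, adjusted over all tested genes), which 14.4% of all tested genes passed. The count is thus not above that of genes at large. On the log2 scale, shArf1-2 minus shArf1-1 was -0.27 for Rpl35 (adjusted p = 0.0376), -0.26 for Rpl38 (adjusted p = 0.000931), -0.26 for Rps29 (adjusted p = 0.00195) and -0.25 for Rps28 (adjusted p = 0.00207). It was -0.22 for Rps21 (adjusted p = 0.00427), -0.21 for Rpl37 (adjusted p = 0.00778), -0.18 for Rpl37a (adjusted p = 0.0208) and -0.17 for Rpl34 (adjusted p = 0.0281). The difference was 0.19 for Rpl3 (adjusted p = 0.00666) and 0.19 for Rpl7l1 (adjusted p = 0.0241).

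Rpl35 and Rpl37a are among the members that did not pass over both hairpins, and each was lower with shArf1-2 alone (-0.31, adjusted p = 0.00238, and -0.23, adjusted p = 0.000335). Rpl35 was at 29.1, 30.7 and 30.7 FPKM with shlucif, 28.3, 28.0 and 34.3 FPKM with shArf1-1, and 24.8, 24.7 and 27.1 FPKM with shArf1-2. Its shArf1-2 libraries lay below all others.

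Of the 10 differences, those of Rpl34, Rpl35, Rpl37, Rpl37a and Rpl7l1 were lost without single libraries. Without shArf1-1 library 1, adjusted p was 0.151 for Rpl34, 0.0606 for Rpl37, 0.103 for Rpl37a and 0.068 for Rpl7l1, and without its library 3 it was 0.0528 for Rpl34, 0.29 for Rpl35 and 0.0659 for Rpl37a. Without shArf1-2 library 1 it was 0.136 for Rpl34, 0.122 for Rpl35, 0.084 for Rpl37, 0.123 for Rpl37a and 0.113 for Rpl7l1. Without shArf1-2 library 2 it was 0.0668 for Rpl34 and 0.147 for Rpl35, and without library 3 it was 0.0539 for Rpl34 and 0.117 for Rpl7l1. Rpl38, Rps28, Rps29, Rps21 and Rpl3 passed without each library in turn, all values by edgeR.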

How the results depend on the processing

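The count of members lower in Arf1-deficient cells, 70 in the reported analysis, lay between 65 and 73 over 23 alternatives, and 65 of the 70 passed in each of them. The other 5 (Rpl38, Rpl39, Rps21, Rps25 and Rps29) lost the call in 5 to 13 alternatives, and none of the 70 turned positive. The members' median log2 fold change lay between -0.41 and -0.34 with 1 library left out. In the other 14 settings it lay between -0.38 and -0.30. With shArf1-2 alone, those settings gave -0.40 to -0.31, and 3 of them moved it by more than the largest SD of replicate library medians (0.07). The count of higher members was 2 in place of 1 with no filter on low counts, with the gene length correction and with the replicate block and gene length correction together, and with shArf1-2 it was 2 in place of 1 with no filter. Leaving out 1 library at a time gave 1 to 3 higher members with shArf1-1, and 4 to 13 lower and 1 to 3 higher members between the hairpins. Limma on log2(FPKM + 1) or log2(FPKM + 0.1) gave 5 lower members between the hairpins in place of 8. The cause was not tested. As a share of summed FPKM in place of counts, the members took 15.1% with shlucif, 12.4% with shArf1-1 and 12.5% with shArf1-2. Leaving out 1 library at a time, Rpl39l ranged from -0.001 (without shlucif library 2) to 0.22, in place of 0.11.

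No shared effect of the replicate number was seen, since deviations of same-numbered libraries correlated between -0.082 and 0.094 over 9 pairs. These values cannot show whether same-numbered libraries were prepared together. With a replicate block, 69 members were lower and 1 was higher. Members at few counts, such as Rpl24, cannot be judged at this depth.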
